A study of Mus musculus with 10 samples.

Results

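Insig1, Srebf2, Scap, Idi1, Hmgcs1, Sqle and Abca1 are 7 genes of cholesterol synthesis and sterol sensing, and their levels were followed across 10 arrays of mouse bone marrow neutrophils. They were chosen by the knockout minus wild type values of Insig1, which stood among the lower genes of the Lcn2 knockout by rank, and the other 6 were taken as sterol-regulated genes of its pathway. The 7 genes have 8 single-gene probe sets among the 35556 on the array, 1 for each gene and a further one for Idi1. All 7 were among the 14070 genes tested, of 19938 genes with a single-gene probe set. Cells labelled as from female C57bl/6 mice aged 10 weeks were enriched on a Percoll gradient, and the study set the loss of Lcn2 against wild type without and with fMLP. Lcn2 encodes lipocalin 2, a granule protein of neutrophils that binds bacterial iron carriers, and fMLP is a formylated peptide, of the kind bacteria release, that neutrophils follow and respond to. The groups were 2 arrays of Lcn2 knockout cells after fMLP and 2 of wild type cells after fMLP (10 micromolar for 20 minutes), 3 arrays of unstimulated knockout cells and 3 of unstimulated wild type cells. The labels do not say how the knockout allele was made, whether arrays of a group came from separate animals, or how unstimulated cells were kept, so the tests measure the spread between these arrays, which may be technical.

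Cells make cholesterol from acetyl-CoA through the mevalonate pathway, and its genes are switched on together by SREBP-2, the product of Srebf2. SCAP escorts SREBP-2 from the endoplasmic reticulum to the Golgi, where proteases release its active part. When sterols are plentiful, INSIG1 holds SCAP back, and Insig1 is itself an SREBP target. ABCA1 exports cholesterol to apolipoprotein and is induced by the sterol-sensing LXR receptors, so it usually answers sterols in the opposite direction to the synthesis enzymes. Neutrophils live briefly and depend on membrane cholesterol for lipid rafts, adhesion and receptor signalling.

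The 250 bases before the start of Insig1 and Idi1, the 2 genes whose values stood highest after fMLP relative to unstimulated cells, are shown beside those of Hmgcs1, an enzyme gene with a sterol regulatory element. Capitals mark the CCAAT box (CCAAT or ATTGG), where NF-Y binds beside SREBP, and the core of the sterol regulatory element in the form TCACNCCAC or GTGGNGTGA. The sequences are RefSeq's for build GRCm38.p6, plus strand, at chr5:28071162-28071411 for Insig1, chr13:8885356-8885605 for Idi1 and chr13:119690101-119690350 for Hmgcs1.
Insig1: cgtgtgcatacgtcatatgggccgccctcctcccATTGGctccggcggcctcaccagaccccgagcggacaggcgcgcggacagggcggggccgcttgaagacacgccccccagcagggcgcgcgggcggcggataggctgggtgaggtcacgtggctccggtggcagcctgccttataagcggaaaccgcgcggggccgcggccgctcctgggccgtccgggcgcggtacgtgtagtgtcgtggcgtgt
Idi1: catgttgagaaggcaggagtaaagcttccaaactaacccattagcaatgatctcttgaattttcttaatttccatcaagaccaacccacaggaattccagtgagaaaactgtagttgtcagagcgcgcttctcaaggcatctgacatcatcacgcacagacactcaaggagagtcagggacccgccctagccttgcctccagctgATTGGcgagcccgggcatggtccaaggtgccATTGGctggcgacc
Hmgcs1: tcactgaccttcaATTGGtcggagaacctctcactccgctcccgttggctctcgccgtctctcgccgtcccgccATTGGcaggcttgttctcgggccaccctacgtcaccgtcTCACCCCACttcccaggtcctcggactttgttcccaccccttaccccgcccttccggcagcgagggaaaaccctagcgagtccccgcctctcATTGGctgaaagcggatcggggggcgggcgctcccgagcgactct
Hmgcs1 held the element core once, as TCACCCCAC from 137 to 129 bases before the start, and 3 CCAAT boxes. Insig1 held 1 CCAAT box and Idi1 held 2, and neither held these letters of the element core in this window. The table holds promoters for 6 of the 7 genes. Among the others, Srebf2 had 1 CCAAT box, while Scap and Abca1 had none. The element core was present in 1.05% of 32851 promoters of this length and the CCAAT box in 33.8%. Of 19 promoters of 16 cholesterol synthesis enzymes, 1 held the element core and 15 held the CCAAT box. The AP-1 site TGANTCA, which reads alike on both strands, was in 6.75% of all promoters, in 3 of the 19 enzyme promoters and in none of the 6 genes. A match is a description of letters and not a measured binding site.

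The arrays had features that touch every result below. Array set 1 (unstimulated replicates 1 and 2 of both genotypes) had an interquartile range of 1.64 to 1.68 on the log2 scale, against 2.47 to 2.59 on array set 2 (unstimulated replicate 3 of both genotypes and the 4 fMLP arrays). The set was therefore a term of the model, and the averaged fMLP difference sets the 4 fMLP arrays against the 2 unstimulated arrays of set 2. Lcn2 ran from 8.09 to 9.60 on the 5 knockout arrays and from 13.88 to 14.16 on the 5 wild type arrays. On fMLP knockout replicate 2, 12 of 12 neuron markers and 6 of 6 astrocyte markers exceeded the average of the 3 remaining fMLP arrays, by medians of 3.11 and 1.65, and 0 of 12 neutrophil markers did. Neutrophil markers averaged 13.07 to 13.63 on the fMLP arrays and 13.61 to 13.64 on the unstimulated arrays of set 2. Xist, expressed from the inactive X chromosome, was 9.83 on fMLP knockout replicate 2 and 10.97 to 11.12 on the other fMLP arrays, against 6.88 and 6.94 on the unstimulated arrays of set 2. Eif2s3y, a Y-linked gene, was 5.36 to 6.48 on the fMLP arrays and 9.59 and 9.83 on those unstimulated arrays, which goes against the female label there. On the unstimulated arrays of set 1, Xist was 7.73 to 7.82, below every fMLP array, and Eif2s3y was 6.77 to 7.22. Relative to the 2 unstimulated arrays of set 2, the fMLP arrays were lower for 7 of 7 monocyte and macrophage markers (median -1.74) and 7 of 7 eosinophil markers (median -1.27). They were higher for 7 of 7 T and NK cell markers (median 0.59). These shifts run along with fMLP on all 4 arrays, so fMLP and the source and cell makeup of the preparations cannot be told apart.

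Insig1, the sterol-dependent anchor of the SCAP complex, stood highest above unstimulated cells after fMLP among the 7 genes. It measured 10.27 and 9.74 in fMLP knockout cells and 10.52 and 10.82 in fMLP wild type cells, against 8.90, 8.45 and 9.37 in unstimulated knockout cells and 9.23, 8.89 and 9.41 in unstimulated wild type cells (log2 RMA signal, by replicate number). All 4 fMLP arrays lay above all 6 unstimulated arrays, and fMLP knockout replicate 2 was the lowest of the 4. The averaged fMLP difference was 0.95 on the log2 scale (SE 0.21, 95% interval 0.48 to 1.43), a 1.94-fold difference that missed the threshold (limma, Benjamini-Hochberg adjusted p = 0.11). Without fMLP knockout replicate 2, Insig1 rose by 1.09 (SE 0.17), or 2.12-fold, and passed (limma adjusted p = 0.0041). By genotype, with all arrays, the difference was 0.75 (0.16 to 1.35) in knockout cells and 1.15 (0.56 to 1.75) in wild type cells, with limma adjusted p of 0.26 and 0.267. Without replicate 2 it was 1.02 in knockout cells (limma adjusted p = 0.053) and 1.15 in wild type cells (limma adjusted p = 0.0103). The knockout difference minus the wild type difference was -0.40 (-1.11 to 0.31), and -0.13 (-0.72 to 0.45) without that array. It is a description here, since it is built from the knockout and wild type values that chose Insig1. In bulk RNA like this, a change in how many cells carry a transcript and a change in RNA per cell cannot be told apart.

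Idi1, the isomerase that makes dimethylallyl diphosphate for isoprenoid chains, was the enzyme gene with the highest averaged fMLP difference. On the brighter probe set it measured 8.26 and 8.44 in fMLP knockout cells and 8.84 and 9.19 in fMLP wild type cells, against 6.78, 7.03 and 7.94 in unstimulated knockout cells and 6.97, 7.28 and 8.27 in unstimulated wild type cells. The wild type fMLP arrays lay above every unstimulated array, while fMLP knockout replicate 1 lay level with unstimulated wild type replicate 3. Set 1 arrays were low throughout, by 1.09 on the unstimulated arrays relative to set 2. The averaged fMLP difference was 0.58 (SE 0.15, 0.24 to 0.92), or 1.49-fold, and missed the threshold (limma adjusted p = 0.139). Without fMLP knockout replicate 2, Idi1 rose by 0.53 (SE 0.14), or 1.45-fold (limma adjusted p = 0.0383). In that fit the difference was 0.29 in knockout cells (limma adjusted p = 0.541) and 0.78 in wild type cells (limma adjusted p = 0.0234). The difference between those differences, knockout minus wild type, was -0.49 (-0.98 to -0.01), with a limma adjusted p of 1. With all arrays it was -0.40 (-0.91 to 0.10, limma adjusted p = 0.776).

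The dimmer probe set of Idi1 measured 8.48 and 8.45 in fMLP knockout cells and 8.85 and 9.15 in fMLP wild type cells, against 6.59, 6.93 and 7.90 in unstimulated knockout cells and 6.51, 6.96 and 8.22 in unstimulated wild type cells. Here all 4 fMLP arrays lay above all 6 unstimulated arrays. When each probe set was tested on its own, this one gave 0.67 (limma adjusted p = 0.137), and 0.68 without fMLP knockout replicate 2 (limma adjusted p = 0.0359). Both probe sets list the same transcripts, so they do not count as independent measurements.

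**Figure D1:**
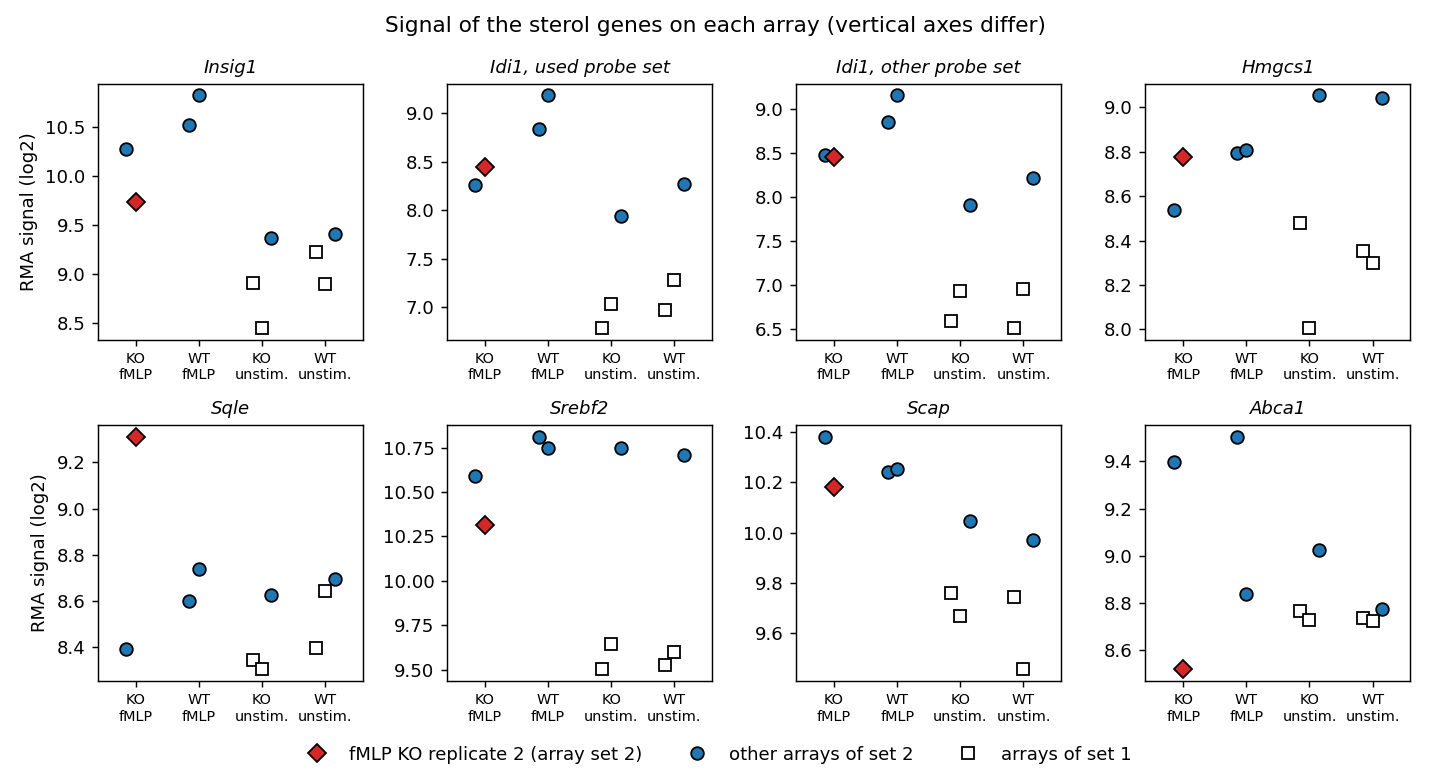
RMA signal (log2, vertical axes differ) of the 7 genes on each array, with both Idi1 probe sets, for fMLP knockout, fMLP wild type, unstimulated knockout and unstimulated wild type cells; each symbol is 1 array and no mean is drawn. For Insig1 and Scap the 4 fMLP arrays lie above all unstimulated arrays, and open squares (array set 1) lie low for Idi1 and Srebf2.

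Hmgcs1, the HMG-CoA synthase that feeds the mevalonate pathway, ran the other way. It measured 8.54 and 8.78 in fMLP knockout cells and 8.79 and 8.81 in fMLP wild type cells, against 8.48, 8.01 and 9.05 in unstimulated knockout cells and 8.35, 8.30 and 9.04 in unstimulated wild type cells. All 4 fMLP arrays lay below both unstimulated arrays of set 2 and above all 4 of set 1, so its direction turns on which unstimulated arrays stand for the baseline. Averaged over genotype, the fMLP difference was -0.32 (-0.65 to 0.01, limma adjusted p = 0.358), and -0.38 without fMLP knockout replicate 2 (-0.67 to -0.09, limma adjusted p = 0.101). Hmgcs1 and Idi1 are both classical SREBP-2 targets. Without that array their differences, -0.38 for Hmgcs1 and 0.53 for Idi1, had opposite signs. With all arrays the Hmgcs1 interval included 0, and SREBP-2 activity was not tested.

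Sqle, the squalene epoxidase of the first oxygen-dependent step, measured 8.39 and 9.31 in fMLP knockout cells and 8.60 and 8.74 in fMLP wild type cells, against 8.34, 8.31 and 8.63 in unstimulated knockout cells and 8.40, 8.65 and 8.70 in unstimulated wild type cells. The groups overlapped, apart from fMLP knockout replicate 2, which was the highest array. Its averaged fMLP difference was 0.10 (-0.41 to 0.62, limma adjusted p = 0.866), and -0.13 without that array (-0.36 to 0.11, limma adjusted p = 0.516). Its sign changed when that array was left out.

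Srebf2, which encodes the transcription factor SREBP-2, measured 10.59 and 10.32 in fMLP knockout cells and 10.81 and 10.75 in fMLP wild type cells, against 9.50, 9.64 and 10.74 in unstimulated knockout cells and 9.52, 9.60 and 10.71 in unstimulated wild type cells. Set 2 arrays were above set 1 arrays by 1.16 without any stimulus, and within set 2 the fMLP wild type arrays were highest and the fMLP knockout arrays lowest. The averaged fMLP difference was -0.11 (-0.36 to 0.14, limma adjusted p = 0.681). The knockout difference minus the wild type difference was -0.35 (SE 0.16, -0.72 to 0.02, limma adjusted p = 0.776), and -0.21 without fMLP knockout replicate 2 (-0.53 to 0.11, limma adjusted p = 1).

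Scap, the escort protein of SREBP, measured 10.38 and 10.18 in fMLP knockout cells and 10.24 and 10.25 in fMLP wild type cells, against 9.76, 9.67 and 10.05 in unstimulated knockout cells and 9.74, 9.46 and 9.97 in unstimulated wild type cells. All 4 fMLP arrays lay above all 6 unstimulated arrays, and the closest across that gap were fMLP knockout replicate 2 and unstimulated knockout replicate 3. For Scap the averaged fMLP difference was 0.26 (-0.01 to 0.52, limma adjusted p = 0.355), and 0.31 without fMLP knockout replicate 2 (0.07 to 0.54, limma adjusted p = 0.1).

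Abca1, the cholesterol exporter, measured 9.40 and 8.52 in fMLP knockout cells and 9.50 and 8.84 in fMLP wild type cells, against 8.77, 8.73 and 9.03 in unstimulated knockout cells and 8.74, 8.72 and 8.78 in unstimulated wild type cells. Replicate 1 of each genotype was high after fMLP, replicate 2 was not, and the groups overlapped. Over both genotypes the fMLP difference was 0.16 (-0.42 to 0.75, limma adjusted p = 0.803), and 0.38 without fMLP knockout replicate 2 (0.01 to 0.75, limma adjusted p = 0.189).

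Counted together, 0 of the 7 genes passed in the averaged fMLP comparison with all arrays, where 0.341% of all tested genes were called. An unadjusted limma p under 0.05 was found for 2 of the 7, Insig1 and Idi1, and for 2056 of all 14070 tested genes. In fMLP wild type against unstimulated wild type cells 0 of 7 passed (0.0782% of all genes called), and in knockout cells 0 of 7 (0.0853% called). Under an unadjusted 0.05 were 2 of 7 in wild type cells, beside 1133 of all tested genes, and 1 of 7 in knockout cells, beside 2066. Between the genotypes' fMLP differences 0 of 7 passed, 0% of all genes were called by limma, and 258 genes, none of the 7 among them, had an unadjusted p under 0.05. Leaving out fMLP knockout replicate 2 gave 2 of 7 in the averaged comparison (10.1% of all genes called), 2 of 7 in wild type cells (5.15%), 0 of 7 in knockout cells (2.15%, with 3 of 7 under an unadjusted 0.05) and 0 of 7 between the genotypes (0%, with 1 of 7 under an unadjusted 0.05). The median residual SD over all genes was 0.112 without that array and 0.163 with it. Leaving out fMLP knockout replicate 1 instead, so that the array with neuron markers alone stood for knockout cells after fMLP, 3 of 7 (Insig1, Idi1 and Sqle) passed in the averaged comparison, where 28.8% of all genes were called.

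In the order of arrays, without a model, all 4 fMLP arrays lay above both unstimulated arrays of set 2 for Insig1 and Scap, as they did for 11.9% of all tested genes, and below both for Hmgcs1, as for 20.2%. They lay above all 6 unstimulated arrays for Insig1 and Scap, as for 6.8% of genes. Idi1 was not among these on its brighter probe set. Ranked by fitted averaged fMLP difference from the highest, Insig1 stood in the top 0.675% of tested genes and Idi1 in the top 2.74%. Scap stood at 13.3%, Abca1 at 21.2%, Sqle at 28.8%, Srebf2 at 67.3% and Hmgcs1 at 88.9%. The order changed without fMLP knockout replicate 2, with Insig1 at 0.554%, Idi1 at 3.38%, Abca1 at 7.06%, Scap at 10.3%, Srebf2 at 56.7%, Sqle at 74.2% and Hmgcs1 at 95.5%. The median difference of the 7 genes was 0.16, beside -0.02 for all tested genes, with 5 of 7 above 0. Without that array it was 0.31, with 4 of 7 above 0.

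The wider pathway was read from lists drawn up from general knowledge, which hold the 7 genes too. Of 21 cholesterol synthesis enzymes, 16 were tested, and 0 passed in the averaged fMLP comparison with all arrays. An unadjusted limma p under 0.05 was found for 2, Idi1 and Msmo1, and for 2056 of all 14070 tested genes. That background also applies to the unadjusted counts with all arrays in the lists below. The median of the 16 enzymes was -0.01, with 8 above 0 and 8 below. Without fMLP knockout replicate 2, 4 of the 16 lay above 0 and 12 below, with a median of -0.12 beside -0.01 for all genes. Idi1 then stood highest at 0.53, with Hmgcs1 at -0.38. Besides Idi1 and Hmgcs1, the enzymes with the smallest p were Msmo1, a methylsterol oxidase, at -0.43 (-0.72 to -0.14, limma adjusted p = 0.176), and Lbr, the lamin B receptor with sterol reductase activity, at -0.41 (-0.96 to 0.14, limma adjusted p = 0.48). Lbr differed by -0.20 without fMLP knockout replicate 2 (limma adjusted p = 0.484). Lss and Cyp51 lay under the filter.

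Of 6 tested genes of SREBP processing, 0 passed with all arrays (1, Insig1, at an unadjusted limma p under 0.05), and Insig1 rose without fMLP knockout replicate 2. Their median was 0.08 with all arrays. Srebf1, which encodes SREBP-1, differed by 0.14 (limma adjusted p = 0.562), and by 0.09 without that array (0.615). The 5 tested genes of sterol-regulated protein degradation gave 0 calls in both fits, with 1 under an unadjusted limma p of 0.05 with all arrays and 2 without fMLP knockout replicate 2, and a median of 0.10, or 0.07 without that array. Ufd1, a cofactor of the segregase VCP, differed by 0.35 (limma adjusted p = 0.173), Faf2 by 0.22 (0.472), Rnf145 by -0.12 (0.758) and Vcp itself by 0.10 (0.852). Rnf145 and Vcp changed sign without that array, at 0.015 and -0.093.

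Sterol uptake and transport gave 0 calls among 7 tested genes in both fits, with 0 under an unadjusted limma p of 0.05 with all arrays and 1, Lipa, without fMLP knockout replicate 2. The median was -0.13, and -0.08 without that array. Lipa, the lysosomal acid lipase, differed by -0.64 (limma adjusted p = 0.357), and Npc1, which exports cholesterol from late endosomes, by -0.46 (0.35). Scarb1, the HDL receptor, differed by -0.14 (0.616) and the cholesterol carrier Stard4 by 0.12 (0.634). With that array left out, Lipa differed by -0.34 (limma adjusted p = 0.107), Npc1 by -0.32 (0.256) and Scarb1 by -0.08 (0.689). On the same arrays monocyte and macrophage markers, 7 of 7, were also lower (median -1.74), and their part in the Lipa and Npc1 values was not tested.

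Sterol efflux and LXR gave 0 calls among 7 tested genes in both fits (0 under an unadjusted limma p of 0.05 with all arrays, and 1, Abca1, without fMLP knockout replicate 2), with a median of 0.03, and 0.12 without that array. Beside Abca1 they included Apoe at 0.32 (limma adjusted p = 0.497), Lpcat3 at -0.36 (0.392) and Nr1h3, the gene of LXR alpha, at 0.05 (0.888). When that array was left out, Apoe differed by 0.16 (limma adjusted p = 0.528) and Lpcat3 by -0.20 (0.273). The 10 fatty acid genes driven by SREBP-1 had a median of 0.09 with all arrays and -0.03 without fMLP knockout replicate 2. With all arrays they gave 0 calls, and 1, Elovl5, had an unadjusted limma p under 0.05, beside 2056 of all 14070 tested genes. Elovl5, an elongase of polyunsaturated fatty acids, differed by -0.51 with all arrays (limma adjusted p = 0.135), and by -0.44 without fMLP knockout replicate 2. Scd1, the stearoyl-CoA desaturase, differed by 0.94 without that array (0.27 to 1.61, limma adjusted p = 0.0808), and by 0.64 with all arrays (0.514). Fads2, a desaturase, differed by 0.74 with all arrays (limma adjusted p = 0.538) and by 0.18 without fMLP knockout replicate 2 (0.311), and Elovl6 by 0.16 and 0.0032 (0.709 and 0.99).

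**Figure D2:**
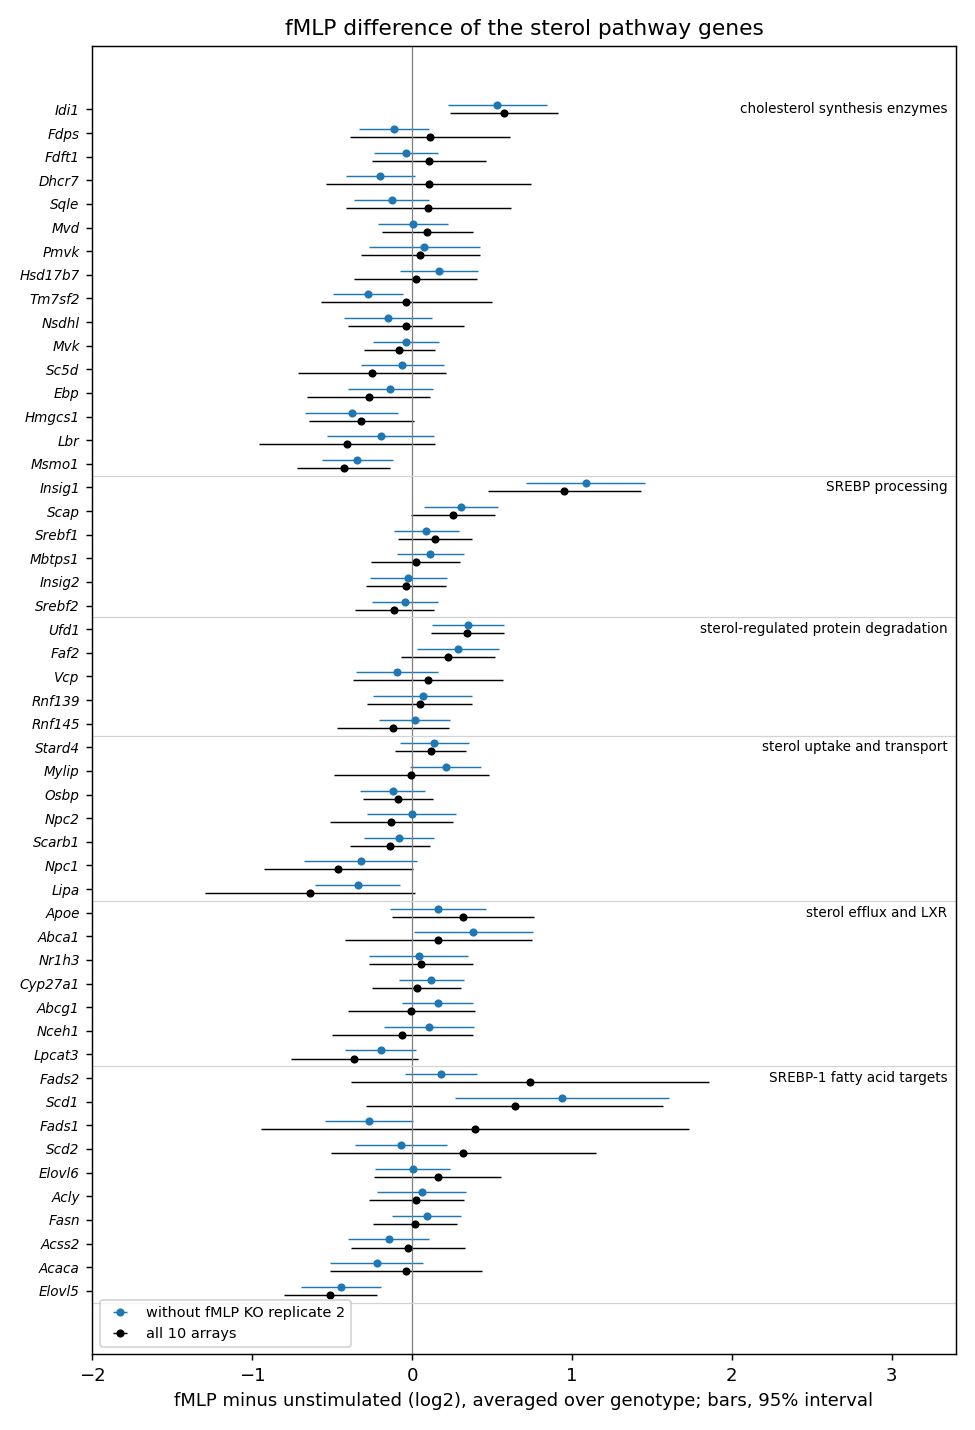
Averaged fMLP difference (fMLP minus unstimulated, log2) of every tested gene of the sterol and fatty acid lists, with 95% intervals; each gene has a point without fMLP knockout replicate 2 and a point with all 10 arrays. Insig1, at 1.09 and 0.95, lies furthest right among the SREBP processing genes, Idi1 leads the enzymes at 0.53 and 0.58, and most other enzymes have intervals that include 0.

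Several sterol and fatty acid genes set fMLP knockout replicate 2 apart from the average of the 3 remaining fMLP arrays. Sqle was above that average by 0.73, Fdps, the farnesyl diphosphate synthase, by 0.73, Tm7sf2, a sterol reductase, by 0.90, and Dhcr7, the enzyme of a last step to cholesterol, by 1.27. Among the fatty acid genes, Fads1 was above by 2.42, Fads2 by 2.12 and Scd2 by 1.60. Insig1 was below by 0.80 on the log2 scale, Abca1 by 0.73, Srebf2 by 0.40, Idi1 by 0.32 and Lbr by 1.02. In the whole enzyme list, 10 of 18 genes were above (median 0.10), and Msmo1 was below by 0.61. In the whole fatty acid list, 6 of 10 genes were above (median 0.61), and Scd1 was below by 0.93. Over all tested genes, 695 were more than 1 above on this array and 659 more than 1 below, and the part of the neuron and astrocyte signal in the sterol values was not tested.

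**Figure D3:**
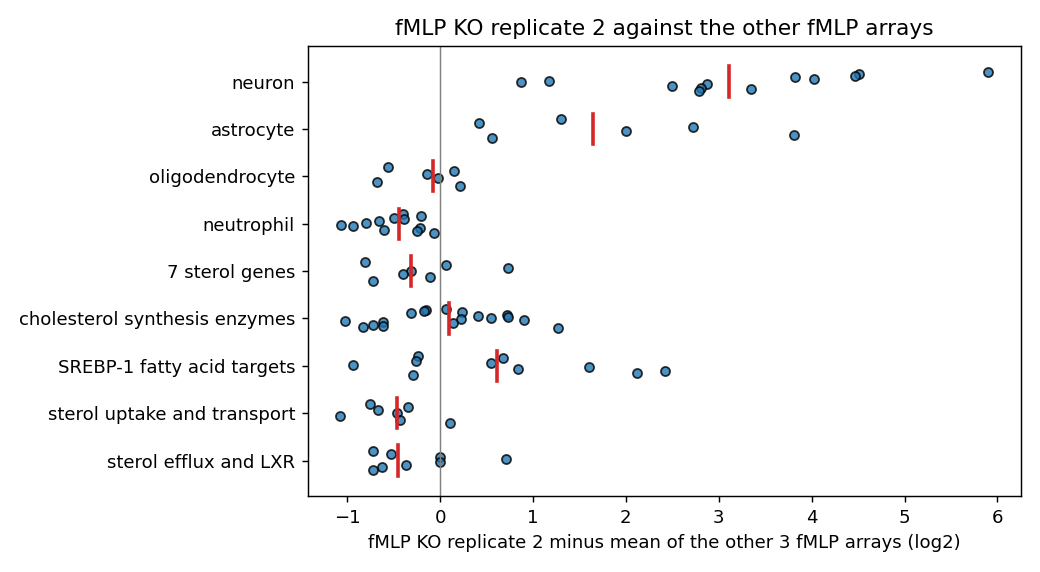
Signal on fMLP knockout replicate 2 minus the average of the 3 remaining fMLP arrays (log2) for marker lists and sterol lists; each point is 1 gene and the red bar is the list's median. Neuron markers have a median of 3.11 and astrocyte markers 1.65, and neutrophil markers lie below 0, while the 7 sterol genes lie on both sides of 0 with a median of -0.32.

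Knockout against wild type is the contrast that singled out Insig1, so the values of the 7 genes there are a description without a test. Insig1 was lower in knockout cells by 0.67 on the log2 scale after fMLP and by 0.27 without stimulation, and ranked 92 of 14070 from the lowest averaged difference. On same-numbered arrays, knockout minus wild type was -0.25 and -1.09 after fMLP and -0.32, -0.45 and -0.04 without stimulation. The largest of these came from fMLP knockout replicate 2, without which the averaged difference was -0.34 in place of -0.47. Idi1 was lower by 0.66 after fMLP and by 0.26 without stimulation, with pair values of -0.57 and -0.74 after fMLP and -0.19, -0.25 and -0.33 without. Its averaged difference was -0.46, and -0.50 without fMLP knockout replicate 2. The dimmer Idi1 probe set gave -0.37 and -0.70 after fMLP, but 0.07, -0.03 and -0.31 without stimulation, where replicate 1 lay above 0.

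Counted by pair, knockout was lower in 5 of 5 pairs for Insig1 and Idi1, in 4 for Sqle, in 3 for Hmgcs1 and for Srebf2, in 2 for Abca1 and in 1 for Scap, and 7.05% of all tested genes were lower in all 5 pairs. The averaged differences were -0.10 for Hmgcs1, 0.01 for Sqle, -0.15 for Srebf2, 0.07 for Scap and -0.06 for Abca1. After fMLP they were -0.14 for Hmgcs1, 0.18 for Sqle, -0.33 for Srebf2, 0.03 for Scap and -0.21 for Abca1. Without fMLP knockout replicate 2 the fMLP difference turned to -0.28 for Sqle and to 0.23 for Abca1. Without stimulation the differences were -0.05 for Hmgcs1, -0.15 for Sqle, 0.02 for Srebf2, 0.10 for Scap and 0.09 for Abca1. Over all tested genes, each of the 3 genotype comparisons called 0.00711%, which is 1 gene, Lcn2. Of the 16 tested synthesis enzymes, which include Idi1, Hmgcs1 and Sqle, 10 lay lower in knockout cells after fMLP and 6 higher. Their median was -0.15, beside -0.05 for all tested genes. Without fMLP knockout replicate 2, 14 lay lower and 2 higher, with a median of -0.24 beside -0.0046 for all tested genes. There 1 array, fMLP knockout replicate 1, stood for knockout cells after fMLP, so the 16 enzymes share any offset of that array. The share of all tested genes that lay lower was not counted. Without stimulation 9 lay lower and 7 higher, with a median of -0.02 beside 0.01. These list values are a description without a test.

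**Figure D4:**
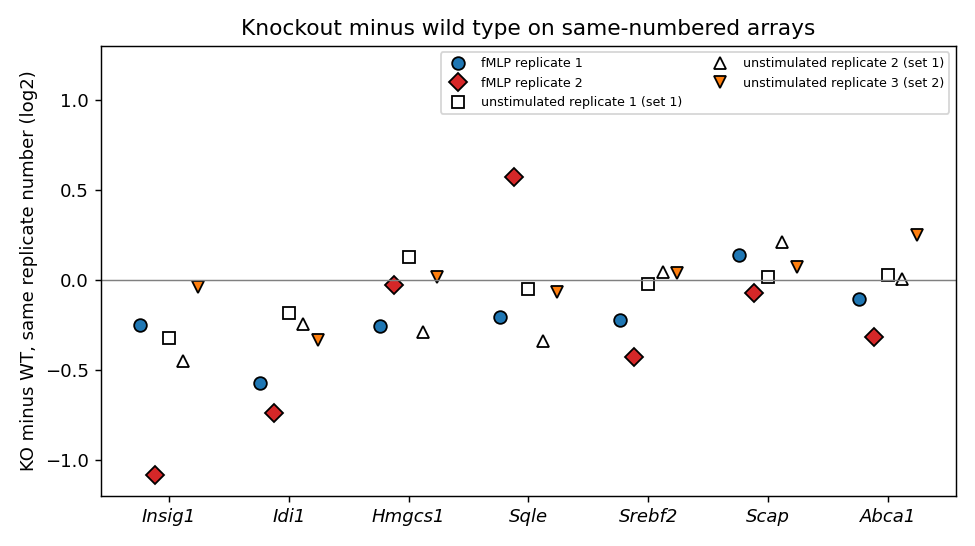
Knockout minus wild type signal (log2) of the 7 genes on arrays of the same state and replicate number; each symbol is 1 pair, 2 after fMLP and 3 without stimulation. Every pair lies below 0 for Insig1 and Idi1, while the other 5 genes have pairs on both sides of 0, and the lowest Insig1 point, -1.09, is fMLP replicate 2.

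Profiles over the 10 arrays, each value taken relative to the mean of its array set, placed Gadd45g, Il2rb and Bhlhe40 nearest to Insig1. The root mean square difference from Insig1 was 0.15 for Gadd45g, 0.19 for Il2rb and 0.20 for Bhlhe40, beside 0.46 for the profile of Insig1 itself. Idi1 stood 286th of 14069 genes by this measure, at 0.31, followed among the 7 by Scap at 1591, Abca1 at 3296, Srebf2 at 4985, Hmgcs1 at 10705 and Sqle at 11334. Gadd45g measured 10.08 and 9.80 in fMLP knockout cells and 10.12 and 10.67 in fMLP wild type cells, against 8.20, 8.05 and 9.08 in unstimulated knockout cells and 8.45, 8.27 and 9.06 in unstimulated wild type cells. Il2rb measured 8.89 and 8.05 in fMLP knockout cells and 9.04 and 8.86 in fMLP wild type cells. Its unstimulated values were 7.76, 7.49 and 7.99 in knockout cells and 7.93, 7.55 and 7.88 in wild type cells. T and NK cell markers were also higher on the fMLP arrays than on the unstimulated arrays of set 2 (7 of 7, median 0.59). The part of cell makeup in the likeness was not tested.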

How the data were processed

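The authors deposited RMA values made with Affymetrix Expression Console, per the submitters' processing notes. The deposited values, 3.91 to 14.8, were taken as log2, since the log base is not given in the sources used here, nor is whether all arrays were summarised in 1 run. RMA makes the distributions of arrays processed together alike, so 2 array sets with unlike spread affect every difference between them. From these values, the probe set with the highest mean was used per gene (21789 probe sets name 1 gene, 1621 several, 12146 none), and genes with 2 or more arrays over 8.18, the overall median, were tested. All 10 arrays were fitted with limma 3.58.1 in R 4.3.3, with a coefficient per group and array set (interquartile range below or above 2) as a fixed block, leaving 5 residual degrees of freedom. Tests were two-sided, Benjamini-Hochberg adjusted over all tested genes and called under 0.05, and intervals are 95%. Named pathway genes were those called in the averaged fMLP comparison and otherwise up to 4 per list with the smallest p there. Outside this rule, Fdps, Tm7sf2, Dhcr7, Fads1 and Scd2 were named only for their values on fMLP knockout replicate 2. Likeness to Insig1 was the root mean square difference of profiles centred on the array set, and the 3 nearest genes were named. The members, lists, block and tests were chosen with earlier results of these data known. The fit was tested on simulated data with planted fMLP differences larger than those of the members, so that test does not show the power at their size. The number of arrays limits the precision. Knockout comparisons of the members have no p, since that contrast chose them. The difference between the genotypes' fMLP differences is built from the same values. For Insig1 it is therefore given without a p, and counts there that include Insig1 are not independent of that choice. Promoters came from a RefSeq table. Alternatives were other normalizations, filters, blocks, weights, probe set rules and leaving out arrays (statmod 1.5.0 for the random block); 2 were added after seeing the data. Some listed genes are not reported here.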

Additional observations from a re-analysis of the deposited data

Results flagged for a closer look

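After fMLP, Srebf2 lay on opposite sides of 1 unstimulated array per genotype, while the fitted fMLP difference of each genotype had an interval that included 0. These fitted differences were -0.28 in knockout cells (-0.59 to 0.02) and 0.06 in wild type cells (-0.25 to 0.37). How many of all tested genes have this order of arrays was not counted. Relative to the unstimulated array of the same genotype in array set 2, both fMLP knockout arrays were lower, by 0.16 and 0.43 on the log2 scale, and both fMLP wild type arrays were higher, by 0.105 and 0.04. The fitted knockout difference minus the wild type difference was -0.35 and did not pass (limma adjusted p = 0.776), and over 23 other settings it ranged from -0.48 to -0.16, with adjusted p from 0.0261 to 1. The one setting that called it left out fMLP knockout replicate 1 and so rested on the array with neuron markers, and it called 35% of all tested genes.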

How the results depend on the processing

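Counts below are of genes called by limma at an adjusted p under 0.05, and in the averaged fMLP comparison unless named. Leaving out each array in turn gave 0 to 3 of the 7 genes in the averaged comparison and in the difference between genotypes, and 0 to 2 in wild type and in knockout cells. For the lists it gave 0 to 8 enzymes, 0 to 1 for SREBP processing and for protein degradation, 0 to 2 for uptake and for efflux, and 0 to 5 fatty acid genes. The settings behind the top values left out fMLP knockout replicate 1, where 28.8% of all genes were called (35% between genotypes, 5.15% in wild type and 38.6% in knockout cells), or fMLP knockout replicate 2, with 10.1% called. Array set 2 alone without fMLP knockout replicate 2 gave 4 of the 7 genes averaged (22.2% of all genes called), 2 in wild type (10.8%) and 2 in knockout cells (6.67%), with 4 enzymes and 2 each for SREBP processing, protein degradation, uptake and fatty acid genes. Array weights gave 1 of the 7 averaged (5.44% of all genes) and 4 in wild type cells (26.5%), with 1 for SREBP processing and 1 fatty acid gene.

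The main tests did not take replicate numbers as pairs, although knockout minus wild type was described on same-numbered arrays. Same-numbered unstimulated arrays deviated together (r of 0.949, 0.929 and 0.988 with the array set included, and 0.464 between replicates 1 and 2 within set 1). For fMLP arrays r was 0.0598, a value that includes the array with neuron markers. A replicate block in place of the array set, which sets fMLP arrays against unstimulated arrays of set 1, gave 5 of the 7 genes averaged (83.6% of all genes called), 5 in wild type (80.9%) and 4 in knockout cells (74.2%), with 11 enzymes, 4 SREBP processing, 5 degradation, 6 uptake, 5 efflux and 9 fatty acid genes. As a random block beside the array set it gave 0 of the 7.

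Directions that turned did so mostly where the array set was no longer a term, and without it the median fMLP difference of all genes was 0.12. With no array set block, with none and fMLP knockout replicate 2 left out (added after seeing the data), and with the replicate block, the averaged differences were 0.19, 0.13 and 0.44 for Hmgcs1, 0.66, 0.73 and 1.05 for Srebf2, 0.96, 1.03 and 1.70 for Elovl5, 1.12, 1.33 and 1.88 for Lbr, 1.18, 1.48 and 2.09 for Lipa, 0.91, 1.08 and 1.55 for Lpcat3, 1.05, 1.14 and 1.79 for Msmo1, 0.63, 0.77 and 1.17 for Npc1, -0.35, -0.37 and -0.56 for Nr1h3, 0.78, 0.91 and 1.23 for Rnf145, 0.56, 0.62 and 0.90 for Scarb1, and -0.045, -0.099 and -0.14 for Srebf1. Without fMLP knockout replicate 2, with both sets or set 2 alone, Sqle was -0.13, Rnf145 0.015 and Vcp -0.093, and leaving out single arrays gave up to 0.33 for Sqle, down to -0.25 for Rnf145 and up to 0.29 for Vcp. Over single arrays left out, Abca1 ran from -0.055 (without fMLP knockout replicate 1) to 0.38, with -0.0028 without fMLP wild type replicate 1, and Nr1h3 from -0.0015 (without unstimulated knockout replicate 3) to 0.11. Apart from the array set, the cause was not tested. Insig1 kept its averaged direction in 23 settings (0.78 to 1.47, limma adjusted p 7.86e-05 to 0.985) and Idi1 in 22 (0.48 to 1.67, 5.56e-06 to 0.985), called in 5 and in 4 of them. Idi1 did not pass the stricter filter, so that setting gave no value for it.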
